A study of Mus musculus with 20 samples.

Results

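Fatty acid oxidation under the nuclear receptor PPARA was followed through 8 genes: Ppara, Cpt1a, Acadm, Hadha, Acaa2, Ehhadh, Pdk4 and Angptl4. Every probe carrying 1 of these gene names was taken, which gave 9 probes among 56605, and 8 genes among 25112 named on the array. None of the 8 is an enzyme of ketone body synthesis, so ketone bodies are touched here only through a separate list of 3 enzymes.

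RNA of intestinal tissue from C57BL6/j mice was hybridised to 20 1-colour Agilent arrays. The 6 Cre control mice carried VillinCreER, a tamoxifen-inducible Cre recombinase driven by the Villin promoter in gut epithelium, and the 6 BRAFV600E mice carried in addition 1 BrafV600E-LSL allele, which Cre switches on. Both groups were 8 to 12 weeks old, received 3 daily tamoxifen doses of 2 mg, and were harvested 3 days after the last dose. The 4 MEKi mice received 3 injections of the MEK inhibitor PD184352 and the 4 Vehicle mice 3 injections of its carrier, in both groups after 2 tamoxifen injections. The genotype of these 8 mice is absent from the labels and is given as mutant in the study's figure legends. A treatment text repeated in all labels describes a statin, fits none of the 4 groups and was not used. Recombination is limited to the epithelium whereas the arrays measured pieces of whole small intestine, so that fewer cells of a type and less RNA per cell cannot be told apart. The Braf probe does not distinguish the mutant transcript. Its level was -0.82 ± 0.34 in Cre control and -0.39 ± 0.36 in BRAFV600E (mean ± SD, n = 6 each; limma adjusted p = 0.172).

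Long-chain fatty acids enter mitochondria through the carnitine shuttle and are shortened there by a cycle of dehydrogenation, hydration, a second dehydrogenation and thiolysis. PPARA, a fatty acid-sensing nuclear receptor, pairs with RXR on DNA and raises transcription of many of these enzymes in tissues that burn fat, with fasting as the classic setting. The small intestine expresses PPARA in enterocytes, which absorb dietary fat, and crypt cells have been described as users of fatty acid oxidation.

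All levels below are log2 processed signals minus the 75th percentile of the same array, so that 0 is the 75th percentile. A difference is a difference of such levels between groups, and levels are not compared between probes. A gene was called when its limma p, adjusted over all genes tested, was under 0.05. All 9 member probes were well above background on all 20 arrays. Between 60.8% and 76.8% of spots were well above background, and the number of arrays limits the precision.

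Some arrays stood apart. BRAFV600E replicate 2 and Vehicle replicate 2 were high in Pdx1, Cybrd1, Slc40a1 and Ctse, genes known from the duodenum that were picked after their values had been seen. The mean level of these 4 genes was 5.08 and 5.16 on the 2 arrays, -0.43 and -0.27 on BRAFV600E replicates 1 and 5, and between -4.34 and -2.14 on the other 16. Vehicle replicate 2 was also high in 6 exocrine pancreas genes, with a mean of 7.39 against -1.93 to -0.48 elsewhere. Lct, the lactase gene of jejunal enterocytes, was at -2.23 on BRAFV600E replicate 2 and 3.70 on Vehicle replicate 2, and between 5.49 and 8.30 on the rest. Enterocyte genes defined the tissue: all 12 listed were well above background on every array, and their mean lay between 4.70 and 6.55. Adipocyte genes varied among arrays of the same group, with a mean of 8 genes of -0.92 to 1.63 in Cre control, -2.13 to 0.74 in BRAFV600E, -2.09 to 0.41 in Vehicle and -0.05 to 1.39 in MEKi. Y-linked genes gave a high signal (mean log2 level -1.30 to -0.96, against -6.25 to -4.92) on 3 of 6 Cre control, 4 of 6 BRAFV600E, 2 of 4 Vehicle and all 4 MEKi arrays. Cre control arrays and BRAFV600E replicates 1 and 2 shared slide 1, and BRAFV600E replicates 3 to 6 lay on slide 2. MEKi and Vehicle filled the 2 rows of slide 3, so that row and treatment cannot be told apart.

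To show what the promoters hold, the letters AGGTCA repeated after 1 spacer base, the direct repeat bound by PPARA with RXR, were searched on both strands of RefSeq promoter windows (GRCm38.p6, 250 bases before to 50 after the start site). A window was found for 6 of the 8 genes, with none for Acaa2 or Angptl4. Cpt1a and Pdk4, 2 members, are shown beside Echs1 and Ucp3, 2 listed genes whose windows held closer matches. Each stretch runs 5′ to 3′ along the gene, with the best match in capitals.

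Cpt1a, chr19:3323135-3323187, plus strand: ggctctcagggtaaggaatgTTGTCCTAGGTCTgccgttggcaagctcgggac

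Pdk4, chr6:5496402-5496454, minus strand: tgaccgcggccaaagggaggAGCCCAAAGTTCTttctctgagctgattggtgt

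Echs1, chr7:140116472-140116524, minus strand: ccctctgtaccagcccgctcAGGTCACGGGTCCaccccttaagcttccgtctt

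Ucp3, chr7:100472920-100472972, plus strand: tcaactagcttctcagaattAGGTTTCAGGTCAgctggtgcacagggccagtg

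Cpt1a and Pdk4 matched 8 of the 12 letters, as did Ppara, Hadha and Ehhadh, and 79.8% of all 32851 windows matched as well. Acadm matched 9, which 24.6% of windows reached. Echs1 and Ucp3 matched 10, which 3.86% reached. Of the other listed genes searched, Slc25a20 and Plin2 matched 10 and Hadh 9. Acot1, Ucp2, Oxct1 and the Pparg windows matched 8, and Acadl 7, which 99.9% of windows reached. These matches describe letters in short windows, and binding was not tested.

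The first comparison asked what expression of the mutant kinase changed within days. Cpt1a, the outer mitochondrial carnitine palmitoyltransferase that commits long-chain fatty acids to oxidation, rose in BRAFV600E tissue, and it was the only member called. The other 7 members had positive differences that did not pass the test. Over all 19076 genes tested 12.5% were called, 6.18% higher and 6.28% lower, and 1 call among 8 members is no more than that share. The median difference of the members was 0.24 and that of all genes -0.02. Groups did not overlap for 1 of 8 members and for 7.35% of all genes.

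**Figure D1:**
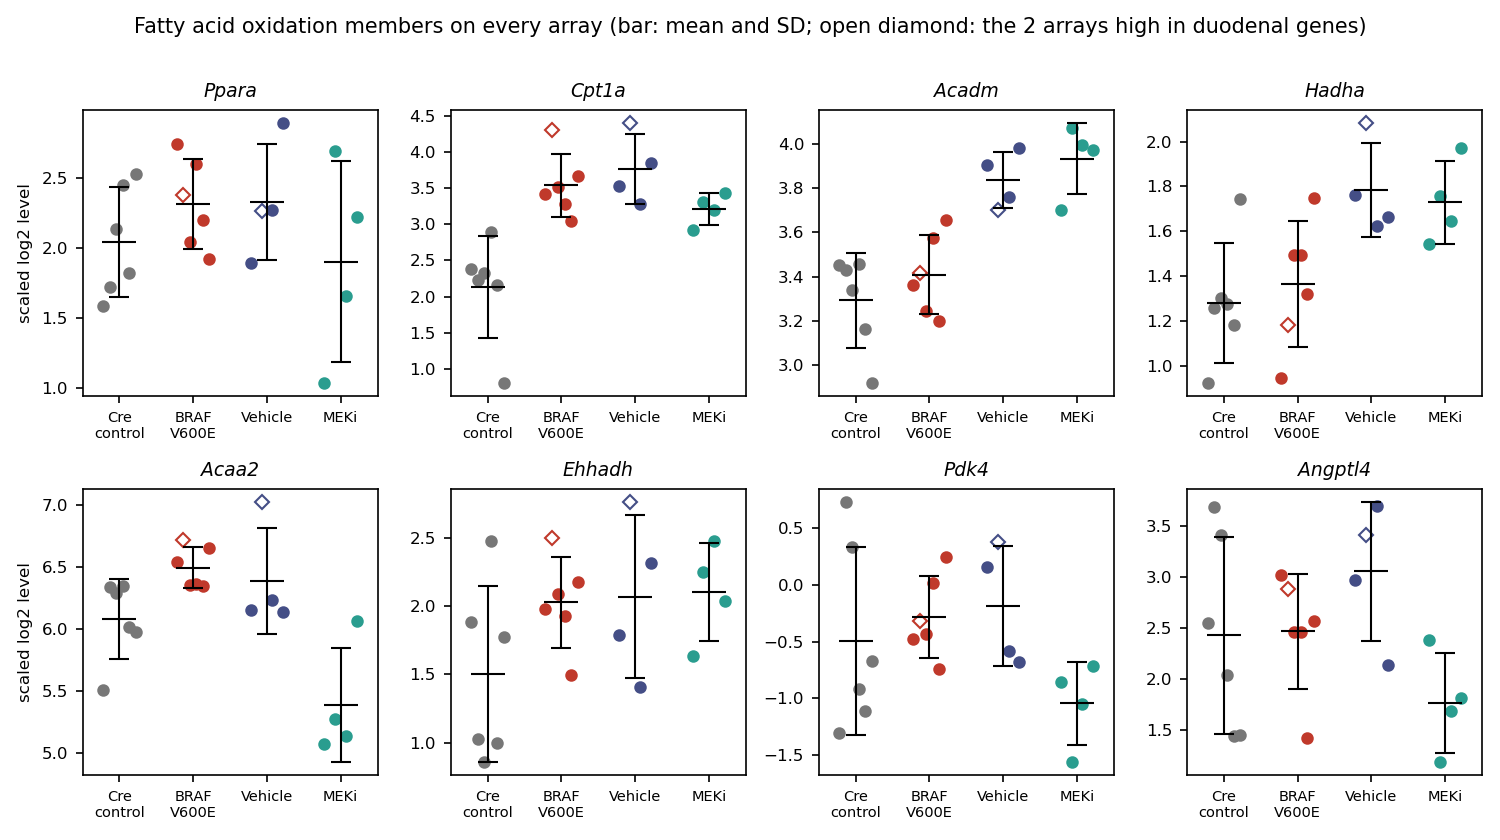
Level of each member on every array (y axis, log2 processed signal relative to the array's 75th percentile) in the 4 groups. Points are arrays, bars the mean and SD, and open diamonds BRAFV600E replicate 2 and Vehicle replicate 2. Every BRAFV600E array lies above every Cre control array for Cpt1a, and every MEKi array lies below every Vehicle array for Acaa2 and Pdk4.

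Cpt1a levels were 0.81, 2.28 and 2.89 (lowest, median and highest of 6) in Cre control and 3.04, 3.46 and 4.30 in BRAFV600E. The groups did not overlap, Cre control replicate 6 lay far below its group, and BRAFV600E replicate 2 was the highest. The difference was 1.40 ± 0.31 (SE, n = 6 each; limma adjusted p = 0.0141), a 2.64-fold higher signal with a 95% interval of 1.66 to 4.22. Blocking on slide gave a difference of 1.73 (adjusted p = 0.0339), and within slide 1, where 2 BRAFV600E arrays met 6 controls, it was 1.73 with an adjusted p of 0.0987. The call was also lost without BRAFV600E replicates 1, 2 and 5 (difference 1.35, adjusted p = 0.0740), the 3 arrays of the group highest in duodenal genes. It was lost likewise without Cre control replicates 2, 3 and 5 (1.51, adjusted p = 0.0996), whose spike-in signals had a flatter slope (0.759 to 0.843) than the other arrays of slide 1 (1.05 to 1.07). The files record that slope as 0 on all 4 arrays of slide 2, which are BRAFV600E replicates 3 to 6, so it goes with slide and group, and its part in the result was not tested. The part of intestinal position in the result was not tested.

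Ppara, the receptor itself, ranged from 1.58 to 2.53 in Cre control and from 1.92 to 2.74 in BRAFV600E, with medians of 1.98 and 2.29. The groups overlapped, and the difference of 0.27 had a 95% interval of -0.17 to 0.72 (adjusted p = 0.395). Its second probe differed by -0.02, so the 2 probes gave opposite signs.

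Within the mitochondrial cycle, Acadm is the medium-chain acyl-CoA dehydrogenase of the first step. Its levels ran from 2.92 to 3.46 in Cre control and from 3.20 to 3.66 in BRAFV600E, a difference of 0.12 with an interval of -0.18 to 0.41. Hadha is the alpha subunit of the trifunctional protein, which carries out hydration and the second dehydrogenation of long chains. Its difference was 0.08 with an interval of -0.28 to 0.44, and it turned to -0.22 with slide as a block. Acaa2, the thiolase that closes the cycle, had levels of 5.51, 6.15 and 6.35 (lowest, median and highest) in Cre control and 6.34, 6.45 and 6.72 in BRAFV600E. All 6 BRAFV600E arrays lay above the Cre control mean, yet 1 control reached past the lowest mutant array. The difference of 0.42 ± 0.16 (SE) was past an unadjusted p of 0.05 but not past the adjusted one (0.0996).

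Ehhadh, the bifunctional enzyme of peroxisomal oxidation, had levels of 0.86, 1.40 and 2.48 in Cre control and 1.49, 2.03 and 2.50 in BRAFV600E. The ranges overlapped almost to the top, and the difference of 0.52 had an interval of -0.08 to 1.12 (adjusted p = 0.225). Without Cre control replicates 2, 3 and 5 it was -0.02.

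The last 2 members act on fuel choice and fat uptake. Pdk4 is the kinase that inactivates pyruvate dehydrogenase and so spares glucose carbon. Its levels spread from -1.30 to 0.73 in Cre control and from -0.74 to 0.25 in BRAFV600E, and the difference was 0.21 with an interval of -0.53 to 0.94. Angptl4, a secreted inhibitor of lipoprotein lipase, spread from 1.44 to 3.69 in Cre control and from 1.42 to 3.02 in BRAFV600E. Its difference was 0.04 with an interval of -0.86 to 0.94.

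**Figure D2:**
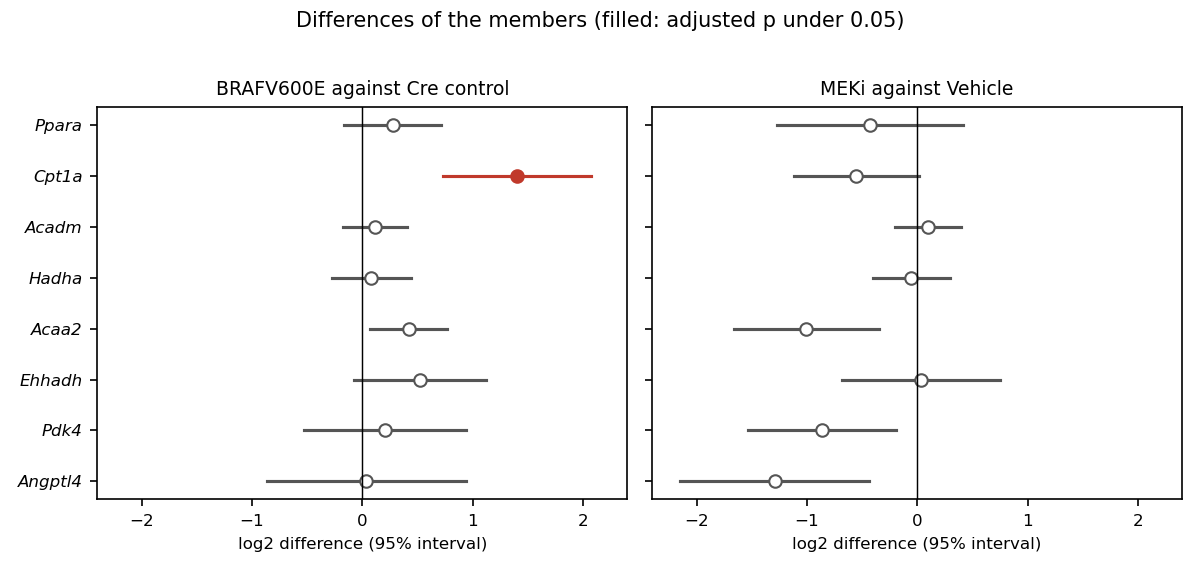
Difference of each member in the 2 comparisons (x axis, log2; points are limma estimates and lines 95% intervals). Cpt1a at 1.40 in BRAFV600E against Cre control is the only filled point, and the intervals of Acaa2, Pdk4 and Angptl4 lie below 0 in MEKi against Vehicle.

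The second comparison asked what blocking MEK, the kinase below BRAF, changed in these genes. No member was called by limma among 8, and 3 were past an unadjusted p of 0.05: Acaa2, Angptl4 and Pdk4. Of all 19270 genes tested, 3155 were past that unadjusted p. Over the 19270 genes tested 1.97% were called, 1.09% higher and 0.882% lower. The sign was negative for 6 members and positive for 2, and the median difference of the members was -0.49 against 0.04 over all genes. Groups did not overlap for 2 of 8 members and for 12.2% of all genes.

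Acaa2 levels were 5.07, 5.27, 5.14 and 6.06 on MEKi replicates 1 to 4 and 6.16, 7.03, 6.24 and 6.14 on Vehicle replicates 1 to 4. Every MEKi array lay below every Vehicle array, though MEKi replicate 4 came close to the lowest. The difference was -1.005 ± 0.29 (SE, n = 4 each; limma adjusted p = 0.134), and -0.79 without Vehicle replicate 2, its highest array.

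Angptl4 levels were 2.39, 1.18, 1.69 and 1.81 in MEKi and 2.97, 3.42, 3.70 and 2.13 in Vehicle. The groups overlapped through Vehicle replicate 4. The difference of -1.29 ± 0.37 was the largest among the members, with an interval of -2.15 to -0.43 (adjusted p = 0.140). Adipocyte genes, which include PPAR targets, differed between these arrays without passing the test, since none of the 8 was called and the groups overlapped. Their mean was 0.41 on Vehicle replicate 1, -2.09 to -1.36 on Vehicle replicates 2 to 4 and -0.05 to 1.39 in MEKi. Their part in the result was not tested.

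Pdk4 levels were -0.86, -1.56, -1.04 and -0.71 in MEKi and 0.16, 0.38, -0.58 and -0.68 in Vehicle. The groups were separated by a narrow margin, and the difference was -0.86 ± 0.29 (adjusted p = 0.193). Cpt1a levels were 2.92, 3.31, 3.19 and 3.44 in MEKi and 3.53, 4.40, 3.29 and 3.84 in Vehicle. All 4 MEKi arrays lay below the Vehicle mean, the groups overlapped, and the difference was -0.55 with an interval of -1.12 to 0.01 (adjusted p = 0.316). Without Vehicle replicate 2 it was -0.34.

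The remaining 4 members were closer to 0 or more scattered. Ppara spread from 1.03 to 2.69 in MEKi and from 1.89 to 2.89 in Vehicle, with a difference of -0.43 and an interval of -1.27 to 0.41; its second probe gave -0.33. The differences of Acadm, Hadha and Ehhadh were 0.10, -0.05 and 0.03. The interval of Acadm, -0.20 to 0.40, was narrower than that of Ehhadh, -0.68 to 0.75.

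Lists of neighbouring genes place the members in their pathway. Over all genes tested, 12.5% were called in BRAFV600E, 6.18% higher and 6.28% lower, and 1.97% in MEKi. An unadjusted limma p under 0.05 was reached by 5747 of 19076 genes in BRAFV600E and 3155 of 19270 in MEKi. Of 19 further genes of mitochondrial beta-oxidation, 3 rose and 1 fell in BRAFV600E. Slc25a20, the carnitine-acylcarnitine carrier that follows Cpt1a in the shuttle, rose by 0.72 (adjusted p = 0.0191). Echs1, the short-chain enoyl-CoA hydratase, rose by 0.64 (adjusted p = 0.0108), and Acadl, the long-chain acyl-CoA dehydrogenase, by 0.56 (adjusted p = 0.0446). Hadh, the short-chain hydroxyacyl-CoA dehydrogenase, fell by 0.85 (adjusted p = 0.0264). Median differences were 0.16 for the list and -0.02 for all genes. With slide as a block, Hadh stayed called (adjusted p = 0.00881) while Slc25a20 (0.195), Echs1 (0.143) and Acadl (0.486) did not. Of 25 alternatives, Slc25a20 and Echs1 were called under 22, Hadh under 19 and Acadl under 9. With the mean over its probes Echs1 was at 0.32 and not called (adjusted p = 0.105). In MEKi none of the 19 was called, and 4 were past an unadjusted p of 0.05. Acadl came nearest, at -0.85 with an adjusted p of 0.0525.

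**Figure D3:**
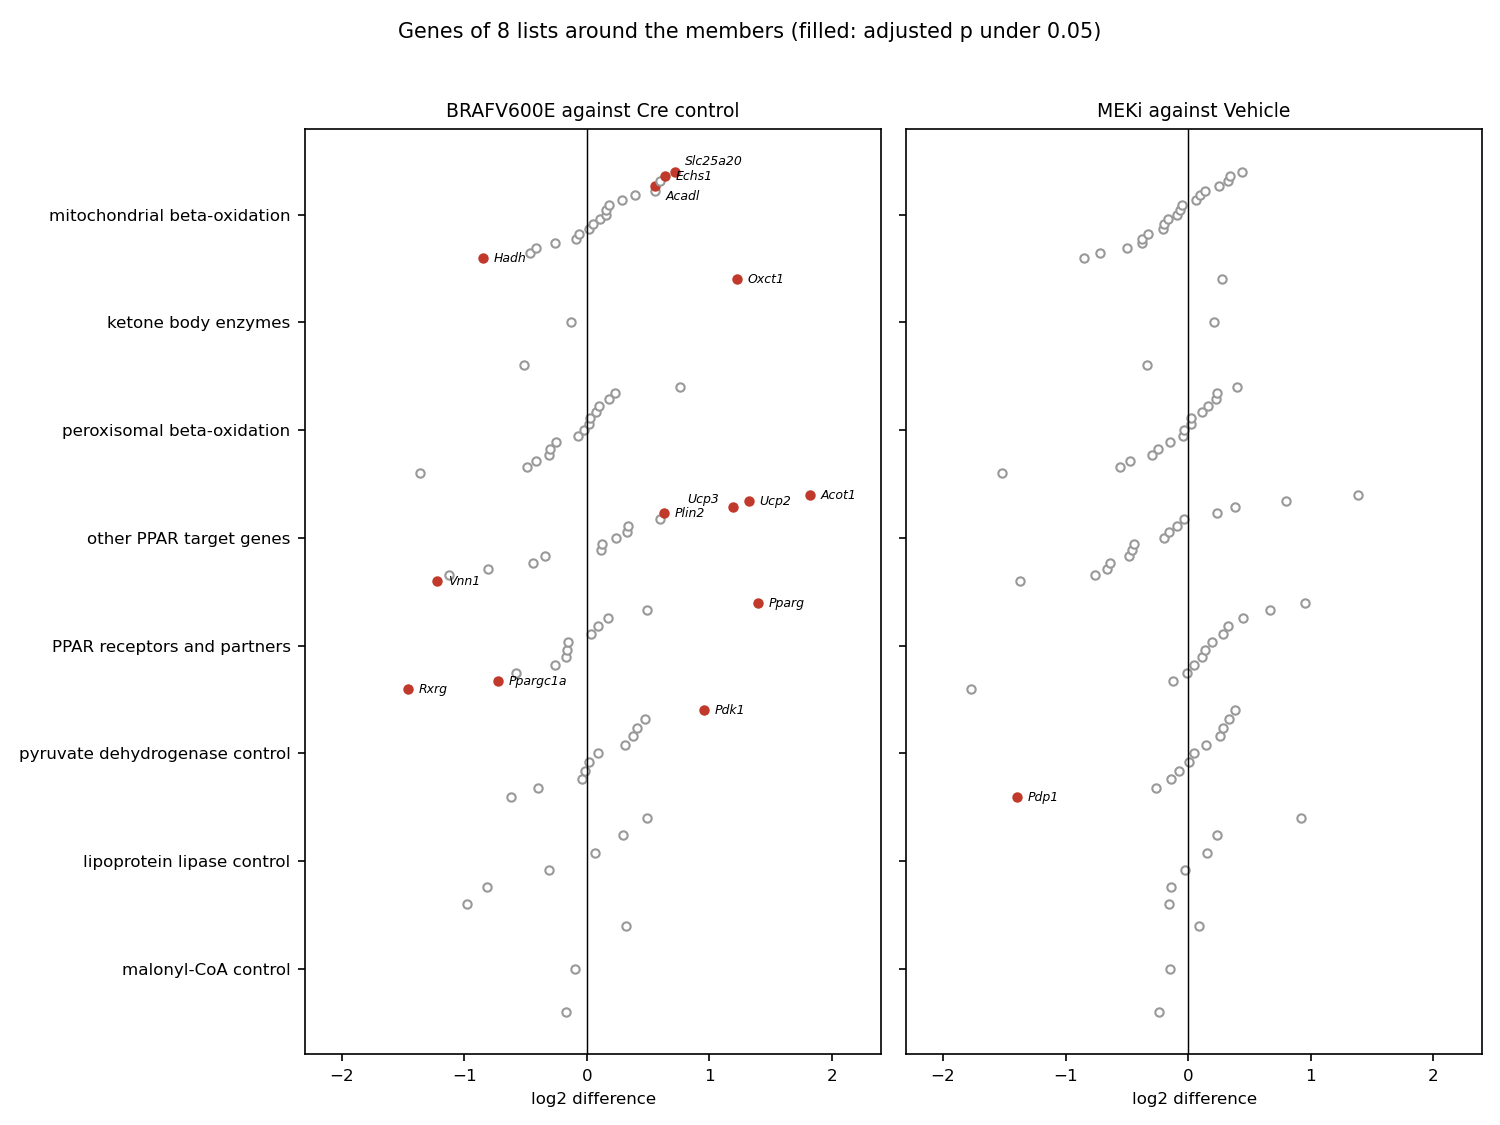
Difference of every tested gene of 8 lists (x axis, log2; rows are lists, points genes spread vertically in order of difference) in the 2 comparisons. Filled points are called: 10 higher and 4 lower of 84 in BRAFV600E against Cre control, and Pdp1 alone in MEKi against Vehicle. Over all genes tested 12.5% and 1.97% were called.

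Of 3 ketone body enzymes, 1 rose in BRAFV600E and none fell, beside 12.5% of all genes called. Oxct1, the transferase that starts ketone body use, had levels of 3.10, 3.73 and 4.23 (lowest, median and highest) in Cre control and 4.35, 4.98 and 5.50 in BRAFV600E. It rose by 1.23 (SE 0.22, adjusted p = 0.00493) with no overlap. Bdh1, the hydroxybutyrate dehydrogenase, differed by -0.13 and Acat1, the acetoacetyl-CoA thiolase, by -0.51, and neither was called. The 2 measurable probes of Bdh1 went opposite ways. With slide as a block, Oxct1 was at 0.99 (adjusted p = 0.0698), and Acat1 was called at -0.99 (adjusted p = 0.0150). In MEKi against Vehicle none of the 3 was called, and Bdh1 was past an unadjusted p of 0.05, at 0.28.

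**Figure D4:**
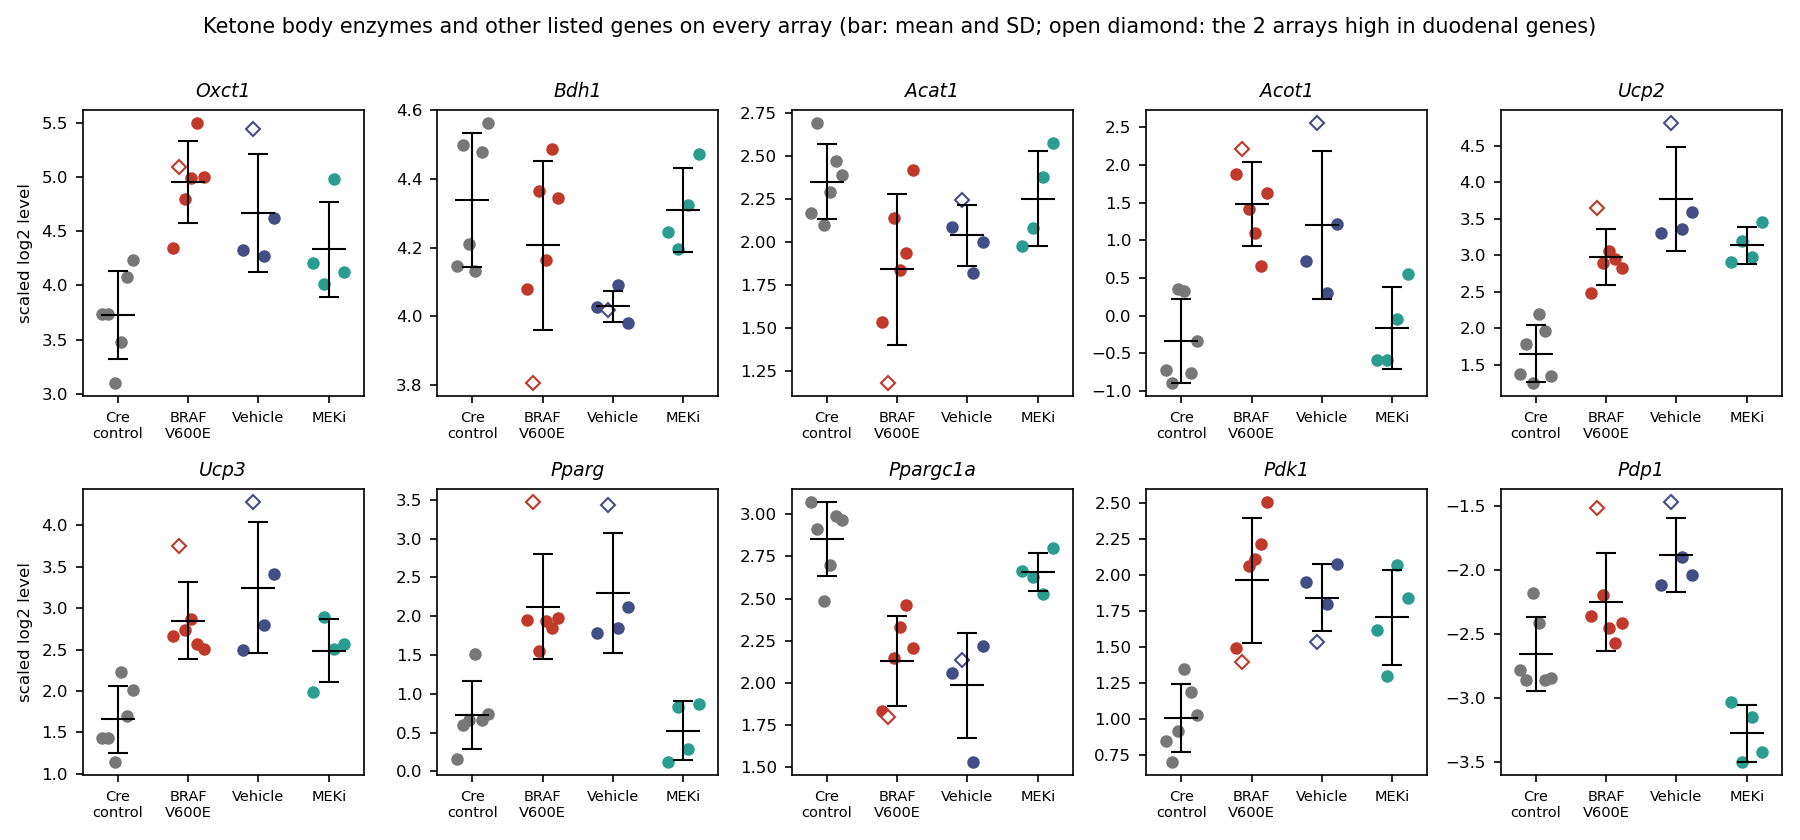
Level of 10 listed genes on every array (y axis, log2 processed signal relative to the array's 75th percentile) in the 4 groups, drawn as for the members. Every BRAFV600E array lies above every Cre control array for Oxct1, Acot1, Ucp2, Ucp3, Pparg and Pdk1, and below every one for Ppargc1a. Groups did not overlap for 7.35% of all genes tested. Vehicle replicate 2, an open diamond, is the highest Vehicle array for Oxct1, Acat1, Acot1, Ucp2, Ucp3, Pparg and Pdp1.

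Among 15 other PPAR target genes tested, 4 rose and 1 fell in BRAFV600E. Over all genes tested 6.18% were called higher and 6.28% lower. The median difference was 0.235 for the list and -0.018 for all genes. Acot1, a cytosolic acyl-CoA thioesterase that shares most of its sequence with Acot2 and may be measured together with it, rose by 1.82 (adjusted p = 0.00300). The mitochondrial carriers Ucp2 and Ucp3 rose by 1.32 (adjusted p = 0.00280) and 1.19 (adjusted p = 0.00897), and the lipid droplet coat gene Plin2 by 0.63 (adjusted p = 0.0478). Vnn1, a pantetheinase, fell by 1.22 (adjusted p = 0.0405). Acot1 was called under all 25 alternatives, Ucp2 under 24 and Ucp3 under 23, whereas Plin2 was called under 7 and Vnn1 under 9. None of the 15 was called in MEKi, where Acot1 was at -1.37 (adjusted p = 0.210).

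Of 12 PPAR receptors and partners, Pparg, the receptor best known from fat cells and colon epithelium, rose by 1.40 in BRAFV600E (adjusted p = 0.0134). Its levels were 0.16, 0.66 and 1.51 in Cre control and 1.55, 1.95 and 3.48 in BRAFV600E, and the highest was BRAFV600E replicate 2. Pparg was called under 23 of 25 alternatives. Among those that lost the call was leaving out Cre control replicates 2, 3 and 5 (1.32, limma adjusted p = 0.134). Ppargc1a, a coactivator of oxidative metabolism, fell by 0.73 (adjusted p = 0.0113), was called under 22 of 25 alternatives and turned to 0.08 without scaling between arrays, where the median of all genes was 0.79. Rxrg, one of the RXR partners, fell by 1.46 (adjusted p = 0.0496), but its probe was well above background on only 3 of 6 BRAFV600E arrays. It was called under 6 of 24 alternatives and not with slide as a block (-1.12, adjusted p = 0.293). In MEKi none was called. Pparg came nearest, at -1.77 (adjusted p = 0.0624) with no overlap between groups. It was called under 6 of 17 alternatives, 1 of them without Vehicle replicate 2 (adjusted p = 0.0316). Over the 17 its limma adjusted p ran from 0.0204 to 0.253.

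Of 11 genes of pyruvate dehydrogenase control, Pdk1, a sister kinase of Pdk4, rose by 0.96 in BRAFV600E (adjusted p = 0.0104), and 1 of its 5 measurable probes went the other way. With slide as a block it was at 0.44 (adjusted p = 0.183). Pdp1, the phosphatase that reverses the kinases, was the only listed gene called in MEKi. Its levels were -3.03, -3.50, -3.15 and -3.42 in MEKi and -2.12, -1.47, -1.90 and -2.04 in Vehicle, and it fell by 1.39 (SE 0.18, adjusted p = 0.0145). It was called under 15 of 17 alternatives, but not without scaling and not with Y-linked signal, which was high on all 4 MEKi and 2 of 4 Vehicle arrays, as a covariate (adjusted p = 0.0869). In BRAFV600E it differed by 0.41 (adjusted p = 0.179).

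The 3 lists named next held no call in either comparison. They were peroxisomal beta-oxidation (15 genes tested, 2 past an unadjusted p of 0.05 in BRAFV600E and 3 in MEKi), lipoprotein lipase control (6 tested, 3 and 0) and malonyl-CoA control (3 tested, 0 and 0). In the lists with calls, 9 of 19 genes of mitochondrial beta-oxidation and 9 of 15 other PPAR targets were past it in BRAFV600E. So were 2 of 3 ketone body enzymes, 4 of 12 receptors and partners and 5 of 11 genes of pyruvate dehydrogenase control. In MEKi the counts of these 5 lists were 4, 4, 1, 4 and 1. Of all genes tested, 5747 of 19076 were past that unadjusted p in BRAFV600E and 3155 of 19270 in MEKi. Malonyl-CoA inhibits Cpt1a, and its enzymes Acaca, Acacb and Mlycd differed by 0.32, -0.10 and -0.17 in BRAFV600E and by -0.14, 0.09 and -0.23 in MEKi. Over all 8 lists, 14 of 84 genes were called in BRAFV600E and 1 of 84 in MEKi. The shares called over all genes tested were 12.5% and 1.97%. Abcd2, Fgf21 and Lipc were too dim to test.

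Genes with the most similar pattern were found over the 20 arrays, after removing each gene's mean within each experiment, by the root mean square difference from the member among 18385 genes. Cpt1a, whose own spread by that measure was 0.73, was most like Adam9 (0.30) and Nol3 (0.32). Ehhadh, with a spread of 0.49, was followed closely by Dock8 (0.13) and Pcca (0.17), and Acaa2 (0.47) by Cbr1 (0.25) and Aadac (0.26). Angptl4 (0.77) was followed less closely, its nearest being Cd14 (0.53) and Thbs1 (0.56). The nearest distance was likewise large beside the spread for Acadm (0.11 against 0.17), Hadha (0.15 against 0.22) and Pdk4 (0.385 against 0.589). The nearest were Mrgpra6 and Hcn3 for Ppara, Tmtc4 and Hax1 for Acadm, Ctdnep1 and Mospd3 for Hadha, and Megf11 and Klc3 for Pdk4.

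The array from BRAFV600E replicate 2 was the highest of its group for 3 of the 8 members (Cpt1a, Acaa2 and Ehhadh), and Vehicle replicate 2 for 5 (the same 3, Hadha and Pdk4). Without BRAFV600E replicate 2, Cpt1a remained called at 1.25 (adjusted p = 0.0288). Without Vehicle replicate 2, the differences of Acaa2, Angptl4 and Pdk4 were -0.79, -1.17 and -0.68, and none was called.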

How the data were processed

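Per the file headers, the authors extracted each array with Agilent Feature Extraction (version 10.5.1.1 in the submitters' processing notes), which wrote a background-subtracted processed intensity per spot, on a linear scale and not normalized between arrays. The deposited series matrix held the same values and served as the alternative without scaling.

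Control spots and spots marked as outliers were left out. The processed intensity was put on the log2 scale, each array's 75th percentile was subtracted, and copies of a probe were averaged. Probes were named through RefSeq (34818 by accession, 9320 by symbol, 294 by synonym, 12173 unnamed). The probe with the highest mean over 20 arrays stood for a gene. Coordinates of probes are mm9 in the files, and exon or UTR position was not analysed here. Genes entered the test if their probe exceeded background on 6 or more of 12 arrays, or 4 or more of 8. limma 3.58.1 (R 4.3.3) was run separately for the 2 comparisons, two-sided, with Benjamini-Hochberg adjustment over all genes tested. The procedure was tested on simulated data.

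The named genes were all members, the called genes of each list (at most 4 per direction), every gene of lists with 5 or fewer tested, and the 2 genes most like each member. Some genes of the ketone body list are not reported here and are in no count of it. The members and lists were chosen with earlier results of these data known. Replicate numbers only name the arrays. The methods describe separate mice for the first 12 arrays. For MEKi and Vehicle the titles in the labels carry a different number for each sample, so their arrays were also taken as separate mice. A figure legend counts animals for these groups, but its number is higher than the arrays of either group. The marker lists were enterocyte, proliferating crypt, crypt base stem, adipocyte, smooth muscle, endothelial, macrophage, B lymphoid, T lymphoid, exocrine pancreas and hepatocyte.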

Additional observations from a re-analysis of the deposited data

Results flagged for a closer look

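Over 28 genes and 4 groups, 112 sets of arrays were examined for a single array far from the rest of its group, and 7 were found. Chance alone gives about 1 in 20 by this criterion. Cpt1a on Cre control replicate 6 was 0.81, the next lowest Cre control array being 2.16. Acaa2 on Vehicle replicate 2 was 7.03, the next highest Vehicle array being 6.24. Angptl4 on BRAFV600E replicate 5 was 1.42, the next lowest of its group being 2.46. Among listed genes, BRAFV600E replicate 2 was apart and highest for Ucp3 (3.76), Pparg (3.48) and Pdp1 (-1.52). Acaca on Cre control replicate 4 was 2.03, the next highest being 1.42. BRAFV600E replicate 2 and Vehicle replicate 2 are the 2 arrays high in duodenal genes, whose part in these values was not tested.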

How the results depend on the processing

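Cpt1a stayed higher in BRAFV600E under all 25 alternatives, with differences of 1.14 to 2.21, and was called under 22. Without scaling between arrays the median of all genes moved to 0.79 in this comparison, against -0.02 with scaling, and to -0.13 with normexp background correction; the share of calls that were higher was 98.1% and 34.2%, against 49.6%. Without scaling 7 members and 51 listed genes were called, against 14 listed genes in the fit reported. Within slide 1 the counts were 0 and 9. Listed genes called were 9 with the mean over probes and 9 to 16 with 1 array left out, the lowest without Cre control replicate 3. Without Cre control replicates 2, 3 and 5 together they were 0 and 4, and without BRAFV600E replicates 1, 2 and 5 together 0 members were called. These last 2 alternatives, and leaving out arrays for the lists, were chosen after seeing the data. In MEKi against Vehicle 1 member, Acaa2 (adjusted p = 0.0300), was called when all 20 arrays shared a fit. Listed genes called, 1 in the fit reported, were 3 with normexp, with probes well above background on every array and with all 20 arrays in one fit, 2 with the mean over probes, 7 with array weights, 0 without scaling and 0 with a covariate for Y-linked signal, and between 1 and 4 when 1 array was left out, 4 without Vehicle replicate 2. Over all genes, 2377 calls in BRAFV600E became 9343 without scaling, 4659 with normexp, 1533 with slide as a block, 734 within slide 1, 941 without BRAFV600E replicates 1, 2 and 5 and 426 without Cre control replicates 2, 3 and 5, and 1435 to 2867 with 1 array left out. The 380 calls in MEKi became 72 without scaling, 235 without a filter on dim probes, 247 with the mean over probes, 1135 with array weights, 53 with the Y-linked covariate and 76 to 374 with 1 array left out.

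Several differences changed sign. In BRAFV600E, Hadha was -0.22 with slide as a block and within slide 1, Acacb 0.40 in both, and Ehhadh -0.019 without Cre control replicates 2, 3 and 5. Angptl4 was -0.14 with array weights, -0.20 with the Y-linked covariate and -0.16 to 0.29 with 1 array left out. Without scaling differences shifted upward with the median given above, and Bdh1 (0.68), Acat1 (0.30), Ppargc1a (0.082), Acacb (0.71) and Mlycd (0.64) became positive by that shift, while each stayed below that median. Acacb was 0.048 with normexp, and Mlycd 0.063 without BRAFV600E replicates 1, 2 and 5. With 1 array left out Acacb ran from -0.30 to 0.22. In MEKi, Hadha was 0.014 with array weights and 0.03 with the Y-linked covariate, Pdk1 0.054 with the mean over probes, and with the Y-linked covariate Oxct1 was 0.03, Plin2 0.073 and Acacb -0.25. With 1 array left out the ranges were -0.14 to 0.046 for Hadha, -0.19 to 0.26 for Ehhadh, -0.26 to 0.001 for Pdk1 and -0.17 to 0.63 for Acacb. The cause of the other sign changes was not tested. No paired analysis was possible because the labels carry no replicate numbers.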

Other observations

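Markers of other cell types were followed in the same fits. Beside the counts below, 12.5% of all genes tested were called in BRAFV600E, 6.18% higher and 6.28% lower. In MEKi the share was 1.97%. In BRAFV600E against Cre control, 3 of 5 crypt base stem genes, 2 of 5 macrophage genes, 2 of 5 T lymphoid genes, 1 of 5 B lymphoid genes and 1 of 8 adipocyte genes were called lower, and 1 of 12 enterocyte genes and 2 of 7 smooth muscle genes were called higher. The mean of the 12 enterocyte genes was 6.08 to 6.26 in Cre control and 4.70 to 6.25 in BRAFV600E, where replicate 2 was the lowest. Of the exocrine pancreas genes 1 was called higher and 1 lower of 5 tested, and of the hepatocyte genes 1 higher and 2 lower of 5. None of the 7 proliferating crypt genes and none of the 5 endothelial genes was called. In MEKi against Vehicle, 1 of 5 crypt base stem genes was called higher and no gene of the other lists was called.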
